A study of Mus musculus with 18 samples.

Results

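Interscapular brown fat from weaned pups was compared between 3 libraries from offspring of mothers fed a fish oil diet and 3 libraries from offspring of mothers fed a control diet, which are 6 of the 18 libraries of the series. They were taken as the samples whose titles mark them as weaned. The whole study sequenced RNA from brown fat of C57BL/6 mice whose mothers ate control or fish oil diet while pregnant and lactating, at 3 ages: fetal, weaned at 3 weeks, and adult at 15 weeks, after 8 weeks of high fat feeding. Both weaned groups therefore share strain, age and tissue, and differ in the maternal diet. The labels do not say whether the numbered replicates are separate animals or litters, so the p-values measure only the spread between these samples, which may be technical.

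Brown fat burns fatty acids in mitochondria that carry the uncoupling protein UCP1, and it draws those fatty acids from lipid droplets, from the blood and from its own synthesis. Fatty acid synthesis exports citrate from mitochondria, cleaves it to acetyl-CoA and builds palmitate, and its genes are switched on by feeding, glucose and insulin and switched off by fasting. Polyunsaturated fatty acids such as those of fish oil are known to restrain the lipogenic factor SREBP-1 in liver, and milk carries the fatty acids of the mother's diet to the pup.

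Genes with low p-values for the diet difference encode a lipid droplet coat protein (Plin2), a nucleoside transporter (Slc29a1) and fatty acid synthase (Fasn). Promoter windows of 4 of the lipid genes that rose are shown because these genes serve the synthesis of fatty acids and sterols or its control. Each is the 250 bases before the RefSeq start (GRCm38.p6), 5′ to 3′ on the gene's strand, with capitals marking CACGTG (an E-box) and CCAAT or its reverse complement ATTGG, which overlap in 1 stretch of Fasn. The windows are Fasn on the minus strand at chr11:120824548-120824797, Slc25a1 on the minus strand at chr16:17928220-17928469, Insig1 on the plus strand at chr5:28071162-28071411 and Cyp51 on the minus strand at chr5:4104698-4104947.
Fasn: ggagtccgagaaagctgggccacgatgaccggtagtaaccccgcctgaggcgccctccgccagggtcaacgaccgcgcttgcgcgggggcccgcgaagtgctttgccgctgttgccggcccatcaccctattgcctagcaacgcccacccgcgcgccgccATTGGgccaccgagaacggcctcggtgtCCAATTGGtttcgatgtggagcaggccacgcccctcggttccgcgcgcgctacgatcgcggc
Slc25a1: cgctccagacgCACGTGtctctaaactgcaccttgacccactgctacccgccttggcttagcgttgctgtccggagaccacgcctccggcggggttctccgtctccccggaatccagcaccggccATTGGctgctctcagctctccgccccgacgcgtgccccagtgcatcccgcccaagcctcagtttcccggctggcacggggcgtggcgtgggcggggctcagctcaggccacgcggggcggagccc
Insig1: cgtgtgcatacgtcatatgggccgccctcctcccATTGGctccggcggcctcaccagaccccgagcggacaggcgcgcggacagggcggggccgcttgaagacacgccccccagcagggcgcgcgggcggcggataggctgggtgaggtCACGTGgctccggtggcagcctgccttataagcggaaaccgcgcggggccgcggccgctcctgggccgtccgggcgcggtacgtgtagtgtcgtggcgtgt
Cyp51: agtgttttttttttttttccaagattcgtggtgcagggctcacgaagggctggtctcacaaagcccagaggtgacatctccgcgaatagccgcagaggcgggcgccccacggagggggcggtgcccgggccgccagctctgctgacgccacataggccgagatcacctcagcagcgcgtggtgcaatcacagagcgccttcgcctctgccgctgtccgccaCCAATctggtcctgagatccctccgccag
Of the 38 genes that passed, 25 had a window in the RefSeq table. On either strand CACGTG was present in 7 of these 25 (Adprhl1, Dvl2, Insig1, Mgll, Slc25a1, Slc29a1 and Utp14b) and in 6.02% of the 32851 windows of the table. CCAAT was present in 11 of the 25 and in 33.9% of all windows. The sterol regulatory element TCACNCCAC was found in 0 of the 25 and in 1.05% of all windows. A gene was counted if any of its windows held the letters, while the percentages are of single windows, so the shares are not like for like. These are matches of letters and were not tested as sites.

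The 6 weaned libraries held 14755725 to 17943071 forward counts. Of these, rRNA of the mitochondrial gene mt-Rnr2 made up 58.4%, 58.7% and 61.0% in control and 53.1%, 54.9% and 54.9% with fish oil, without overlap. Their means were 59.3 ± 1.44% and 54.3 ± 1.03% (SD, n = 3 each), and the exact two-sided permutation p was 0.1, which is the smallest that 3 against 3 allows. The share of mt-Rnr1, the other mitochondrial rRNA gene, was 8.03% in fish oil library 2 and 3.99% to 5.18% in the other 5 libraries (exact two-sided permutation p = 0.3 between the groups). Values below are CPM (counts scaled to a common library total) on effective library sizes that include this rRNA. The tissue label held: Ucp1 was at 2359 to 4463 CPM, and the summed CPM of 14 brown adipocyte identity genes was 5939 to 8237. The summed CPM of the white adipocyte list was 240 to 377.

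Libraries within a group differed widely. The first principal component of log2 CPM, with 49.5% of the variance, placed control libraries 1 and 2 and fish oil library 1 on one side (-32.0, -28.7 and -31.0). Control library 3 and fish oil libraries 2 and 3 lay on the other side (14.4, 41.1 and 36.1). The second component, with 17.6%, set control library 3 apart at 38.4.

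**Figure D1:**
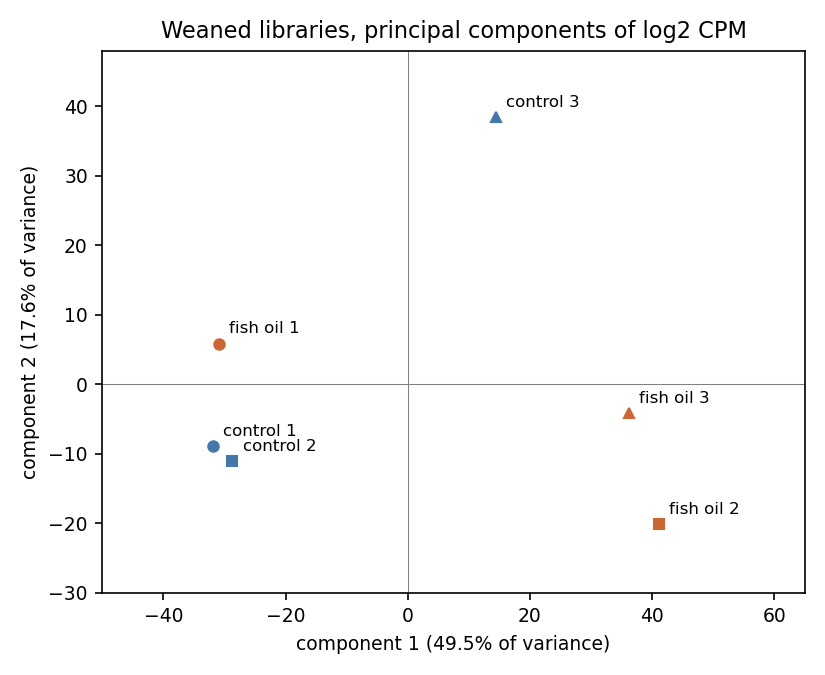
First component (horizontal, 49.5% of variance) and second component (vertical, 17.6%) of log2 CPM in the 6 weaned libraries, 1 point a library. Fish oil library 1 lies at -31.0 on the first component, beside control libraries 1 and 2, and control library 3 lies at 14.4.

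Of 14366 genes tested, 38 (0.265%) passed at an adjusted p of 0.05 in the fit of all 18 libraries with 1 shared spread, 31 higher (0.216%) and 7 lower (0.0487%) with fish oil. An unadjusted p under 0.05 was found for 1915 genes (13.3%). All fish oil values lay outside the control range for 37 of the 38, against 10.2% of the genes tested. The 38 were selected by the same contrast of these libraries, so this count describes them and is no further test. A fit restricted to the 6 weaned libraries tested 12699 genes, of which edgeR passed 0 (0%), limma-voom 0 and DESeq2 15 (0.118%). In that restricted fit an unadjusted p under 0.05 was reached by 643 genes in edgeR (5.06%), each of the 38 among them, and by 555 in limma-voom (4.37%). The 38 were selected with the same weaned libraries, so their place among the 643 is no separate support. With a weight for each age, limma-voom called 1 gene (0.00696%), Plin2. The biological coefficient of variation was 26.8% in the weaned libraries and 20.6% in the shared fit. Leaving out control library 1, 2 or 3 left 5, 4 or 371 genes, and leaving out fish oil library 1, 2 or 3 left 1632, 2 or 8. The 1632 are 11.4% of the genes of that fit, the share to set beside the counts without fish oil library 1 below. Plin2 was among 2 genes that passed in each of these 6 fits, Slc29a1 passed in 5, 7 genes in 3 and 28 genes in 2.

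**Figure D2:**
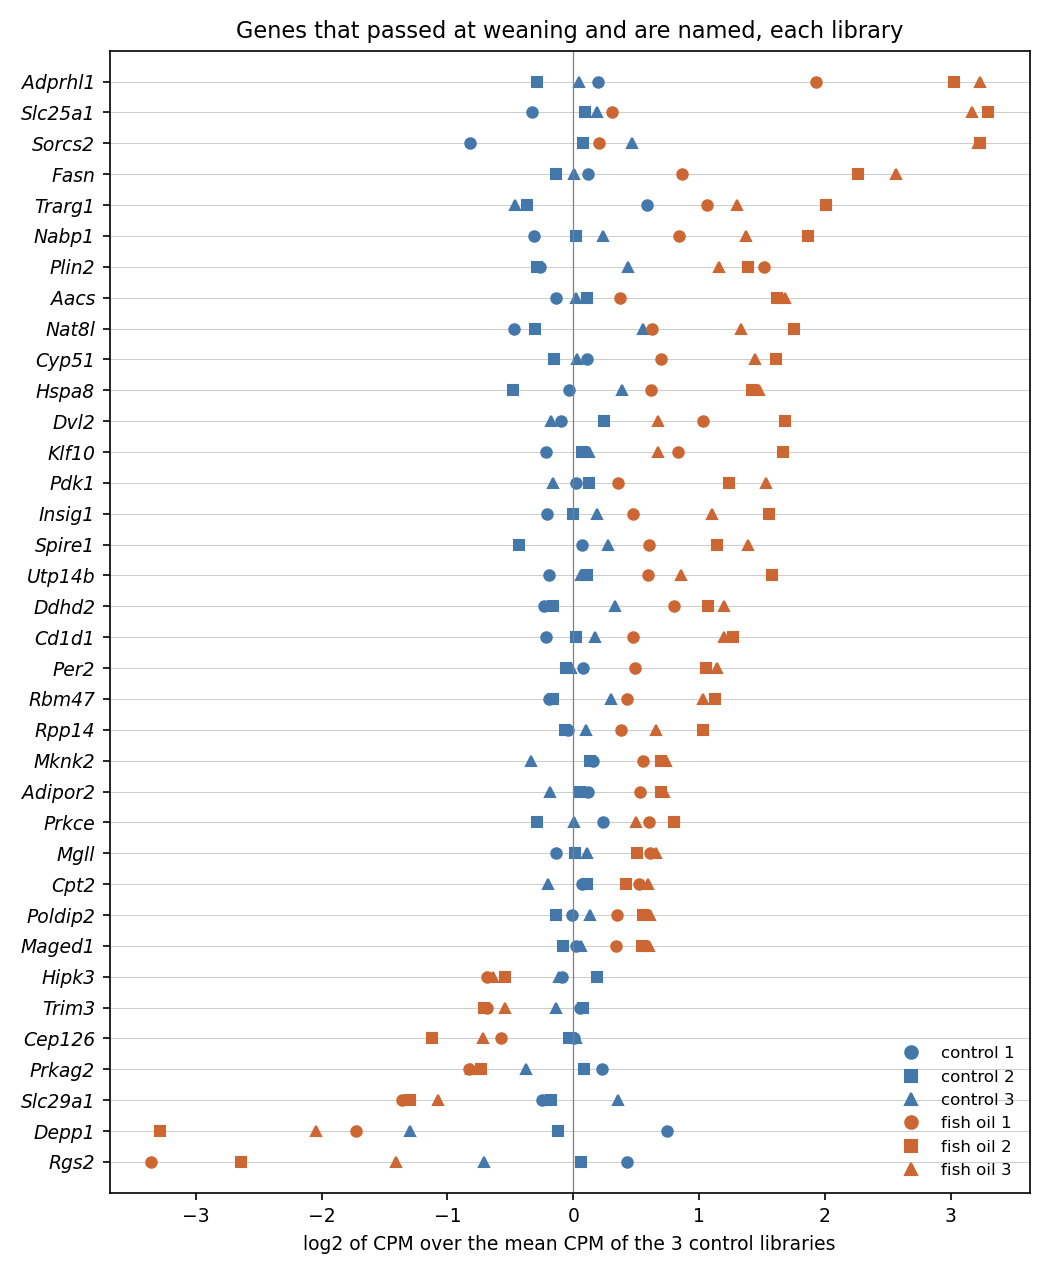
The 36 named genes of the 38 that passed, ordered by fold change; the horizontal axis is log2 of a library's CPM over the mean of the 3 control libraries, and each point is 1 library. Fish oil libraries lie outside the control range for 35 of the 36, and fish oil library 1 is the one nearest to control for 23 of the 29 higher genes plotted.

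Plin2, which coats lipid droplets and rises with the fat stored in a cell, was at 92.9, 91.0 and 150 CPM in control and 318, 291 and 249 CPM in fish oil libraries. The groups did not overlap, and fish oil library 1 was the highest. It rose by 1.36 ± 0.178 on the log2 scale (± standard error of the fit, edgeR adjusted p = 0.00496). Mgll, the lipase of monoacylglycerols, rose from 80.0, 88.8 and 94.8 CPM to 134, 125 and 138 CPM (0.59 ± 0.108, edgeR adjusted p = 0.0309). Ddhd2, a lipase of triglycerides in brain, rose by 1.03 (edgeR adjusted p = 0.0252). Of the 18 tested lipid droplet and lipolysis genes, 2 rose, 0 fell and 13 had a positive log2 fold change, as did 49.6% of all genes tested, with a median of 0.16. The adiponectin receptor gene Adipor2 was at 233, 223 and 190 CPM in control and 311, 350 and 356 CPM in fish oil libraries (0.65 ± 0.101, edgeR adjusted p = 0.0143).

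The mean level of the fatty acid synthesis genes was higher in fish oil libraries 2 and 3 than in the other 4 libraries. It was 5.31, 5.49 and 6.04 log2 CPM in control and 5.56, 7.24 and 7.21 log2 CPM in fish oil libraries. Fasn, which builds palmitate, was at 1813, 1520 and 1680 CPM in control and 3047, 8015 and 9877 CPM in fish oil libraries. The groups did not overlap, and fish oil library 1 was the nearest to control. It rose by 2.06 ± 0.303 on the log2 scale (edgeR adjusted p = 0.0111). Slc25a1, the carrier that exports citrate from mitochondria, was at 13.7, 18.3 and 19.5 CPM in control and 21.2, 168 and 155 CPM in fish oil libraries. Fish oil library 1 lay just above control library 3, and the other two were far higher. Its log2 fold change was 2.74 ± 0.479 (edgeR adjusted p = 0.0252). Aacs, which activates acetoacetate for lipid synthesis, was at 53.7 to 64.0 CPM in control and 76.5, 181 and 190 CPM in fish oil libraries (1.33 ± 0.235, edgeR adjusted p = 0.0252).

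Acly, which cleaves citrate to acetyl-CoA, did not pass although its fold was larger than that of Fasn. It was at 76.6, 143 and 566 CPM in control and 68.8, 1987 and 2577 CPM in fish oil libraries, so that fish oil library 1 was the lowest of the 6 (log2 fold change 2.56 ± 0.818, edgeR adjusted p = 0.206). Acaca, the acetyl-CoA carboxylase, was at 95.1, 145 and 394 CPM against 147, 1101 and 1170 CPM (1.93 ± 0.553, edgeR adjusted p = 0.165). In both genes control library 3 was the highest control library and fish oil library 1 lay with control libraries 1 and 2. The desaturase gene Scd1 had another order, at 4824, 3546 and 1580 CPM in control and 11339, 4055 and 5530 CPM in fish oil libraries (1.07 ± 0.334, edgeR adjusted p = 0.2). There fish oil library 1 was the highest. Elovl6, which elongates palmitate, had a log2 fold change of 0.87 (edgeR adjusted p = 0.165).

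Regulators of the pathway, chosen after their values were seen, followed Acly. Srebf1, which encodes SREBP-1, was at 19.7, 21.5 and 77.5 CPM in control and 14.4, 233 and 157 CPM in fish oil libraries (1.77 ± 0.618, edgeR adjusted p = 0.242). Mlxipl, which encodes the glucose-responsive factor ChREBP, was at 57.1, 54.7 and 83.5 CPM against 55.7, 228 and 199 CPM (1.30 ± 0.324, edgeR adjusted p = 0.119). Thrsp, a lipogenic protein, was at 319, 492 and 1260 CPM against 178, 3029 and 3167 CPM (1.62 ± 0.638, edgeR adjusted p = 0.286). For each of the 3, fish oil library 1 lay within or below the control range and the groups overlapped. Of the 26 fatty acid synthesis genes tested, 3 rose, 0 fell and 24 had a positive log2 fold change, with a median of 1.32 beside -0.0029 over all genes tested. All 3 fish oil libraries lay above all 3 control libraries for 4 of them, against 5.05% of all genes tested. Without fish oil library 1 the median was 1.68 and 20 of the 26 passed, in a fit where 11.4% of all genes did.

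**Figure D3:**
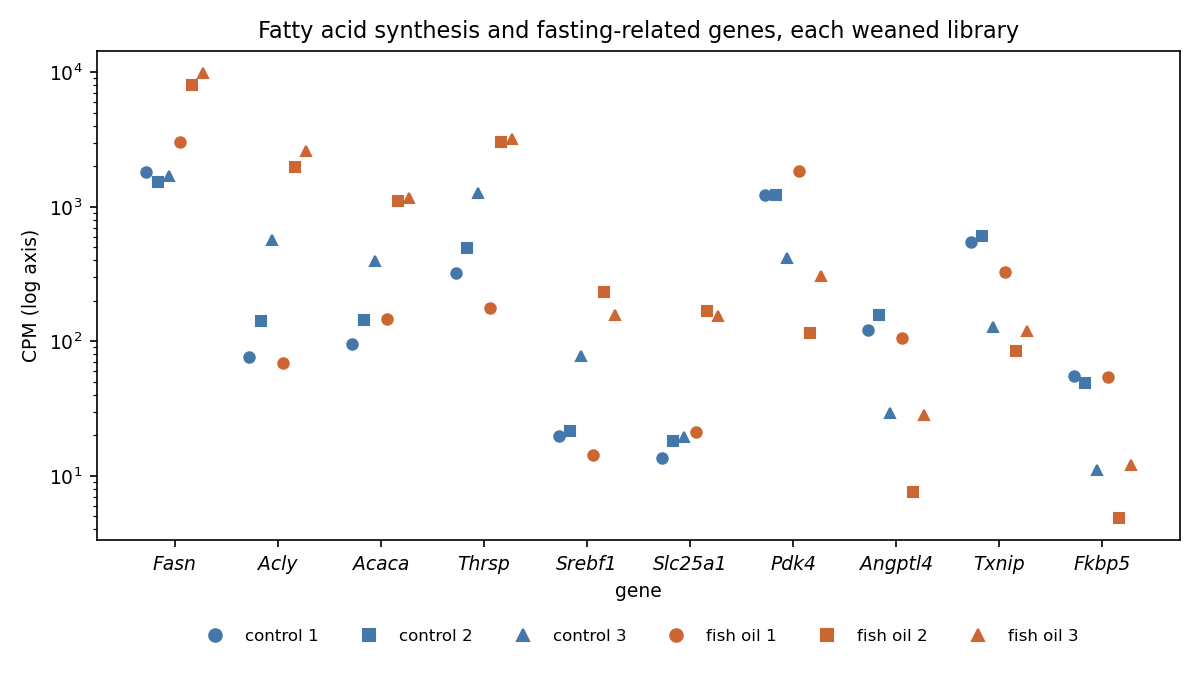
CPM (log axis) of 6 genes of fatty acid synthesis or its regulation and 4 genes known to respond to fasting, insulin or glucocorticoids, 1 point a library. Fish oil libraries 2 and 3 are high for Acly (1987 and 2577 CPM) and fish oil library 1 (68.8 CPM) is not, while Pdk4 is highest in fish oil library 1 (1830 CPM).

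A pair of sterol genes rose. Cyp51, which removes a methyl group from lanosterol, was at 8.79, 7.35 and 8.33 CPM in control and 13.2, 24.9 and 22.2 CPM in fish oil libraries (1.30 ± 0.224, edgeR adjusted p = 0.0252). Insig1, the sterol sensor that holds SREBP proteins in the endoplasmic reticulum, was at 10.7, 12.3 and 14.1 CPM against 17.2, 36.3 and 26.6 CPM (1.11 ± 0.211, edgeR adjusted p = 0.0327). Neither gene overlapped between the groups. Of 26 cholesterol synthesis genes tested, 2 rose, 0 fell and 24 were positive, with a median of 0.56. The median was 0.89 and 13 passed without fish oil library 1.

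Transcripts typical of hepatocytes were high in 1 of these libraries. A list of 18 such genes, written after their values were seen, summed to 81.8, 85.9 and 54.3 CPM in control and 105, 762 and 110 CPM in fish oil libraries. Alb, the albumin gene, was at 325 CPM in fish oil library 2 and 23.9 to 48.2 CPM in the other 5, and none of the 18 genes was at 0 in any of the 6. All 18 had a positive log2 fold change, with a median of 2.06 (0.47 without fish oil library 2), and 0 passed (edgeR; 0 had an unadjusted p under 0.05). Fish oil library 3, with a hepatocyte sum of 110 CPM, had higher Fasn and Acly than fish oil library 2. The part of these transcripts in the other results of fish oil library 2 was not tested.

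Genes that supply the citrate and burn fatty acids differed by smaller amounts. Cpt2, which brings fatty acids into the mitochondrial matrix, rose from 202, 207 and 167 CPM to 275, 257 and 290 CPM (0.51 ± 0.0977, edgeR adjusted p = 0.0327). It was the 1 of 24 fatty acid oxidation genes that passed, 23 were positive and the median was 0.27. Hadha, a subunit of the trifunctional protein of beta-oxidation, was at 1134, 1003 and 844 CPM in control and 1297, 1315 and 1365 CPM in fish oil libraries, without overlap (0.42 ± 0.101, edgeR adjusted p = 0.108). Of 50 nuclear genes of oxidative phosphorylation, 50 were positive, against 49.6% of all genes tested, and 0 passed, with a median of 0.27. An unadjusted p under 0.05 (edgeR) was found for 26, against 13.3% of all genes tested. Their mean level was 6.36, 6.29 and 6.20 log2 CPM in control and 6.31, 6.76 and 6.59 log2 CPM in fish oil libraries. Fish oil library 1 lay within the control range for 34 of the 50. All fish oil libraries lay above control for 5, against 5.05% of all genes tested. Without fish oil library 1 the median was 0.38 and 29 passed. Cox5a, a subunit of cytochrome oxidase chosen after its values were seen and one of those 5, was at 38.9, 36.6 and 33.2 CPM against 45.9, 48.7 and 47.3 CPM (0.38 ± 0.098, edgeR adjusted p = 0.129). All 20 tricarboxylic acid cycle genes were positive with a median of 0.24, and 0 passed. Their mean level was 8.18, 8.10 and 8.01 log2 CPM in control and 8.12, 8.58 and 8.58 log2 CPM in fish oil libraries. Fish oil library 1 lay within the control range for 13 genes. All fish oil libraries lay above control for 3, against 5.05% of all genes tested. The median was 0.36 and 10 passed without that library. The pyruvate carrier genes Mpc1 and Mpc2, also chosen after their values were seen, had log2 fold changes of 1.16 and 0.70 (edgeR adjusted p = 0.0643 and 0.0766), and are among those 3. Of the 8 tested mRNA genes of mitochondrial DNA, 0 passed and 3 were positive, with a median of -0.03. These 8 are a part of the 13 listed. The others, mt-Nd4l, mt-Co2, mt-Co3, mt-Atp6 and mt-Atp8, had 0 to 9 counts each over the 6 libraries and did not enter the fit. The cause of these low counts was not tested. mt-Co1 was at 20311, 19220 and 16905 CPM in control and 15429, 16440 and 15145 CPM in fish oil libraries, also without overlap (-0.26 ± 0.102, edgeR adjusted p = 0.278).

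Glucose handling genes had a median of 0.43 over 21 tested members, of which 17 were positive, 1 rose and 0 fell. Trarg1, a partner of the insulin-regulated glucose transporter, was the member that rose, from 33.2, 17.2 and 16.1 CPM to 46.4, 89.5 and 54.5 CPM (1.51 ± 0.279, edgeR adjusted p = 0.0309). Hk2, the hexokinase of insulin-responsive tissues, was at 145, 154 and 378 CPM against 219, 784 and 659 CPM (1.29 ± 0.364, edgeR adjusted p = 0.16). Fish oil library 1 lay within the control range for Hk2. Hk1, the broadly expressed hexokinase, was at 8.86, 10.7 and 21.3 CPM in control and 6.17, 7.53 and 6.72 CPM in fish oil libraries (-0.998 ± 0.245, edgeR adjusted p = 0.113). Pdk1, a kinase that inhibits pyruvate dehydrogenase, rose by 1.12 (edgeR adjusted p = 0.0309), from 27.1, 29.1 and 23.9 CPM to 34.2, 62.9 and 77.3 CPM.

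Insulin and kinase signalling genes went both ways. Prkag2, a regulatory subunit of the energy sensor AMPK, was at 64.0, 57.9 and 42.2 CPM against 30.8, 32.8 and 31.0 CPM (-0.79 ± 0.152, edgeR adjusted p = 0.0327). Its fish oil libraries lay close together and below every control library. Of 22 insulin signalling genes tested, 1 rose, 1 fell and 13 were positive.

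Depp1 and Rgs2 had the largest falls among the 7 genes that fell. Depp1, a FoxO target induced by fasting, was at 61.4, 33.8 and 14.9 CPM in control and 11.1, 3.77 and 8.88 CPM in fish oil libraries (-2.21 ± 0.428, edgeR adjusted p = 0.0353). Rgs2, which damps G protein signals, was at 103, 80.2 and 47.0 CPM against 7.51, 12.3 and 28.9 CPM (-2.25 ± 0.389, edgeR adjusted p = 0.0252). In both genes control library 3 was the control library nearest to fish oil. The other fasting and FoxO genes tested did not pass. Pdk4, a kinase that spares glucose in fasting, was at 1215, 1214 and 415 CPM in control and 1830, 115 and 304 CPM in fish oil libraries (-0.34 ± 0.609, edgeR adjusted p = 0.847). Angptl4, the fasting-induced inhibitor of lipoprotein lipase, was at 122, 158 and 29.1 CPM against 106, 7.61 and 28.2 CPM (edgeR adjusted p = 0.437). Txnip, which glucose induces and insulin lowers, was at 544, 611 and 129 CPM against 326, 84.8 and 118 CPM (edgeR adjusted p = 0.242). For Pdk4, Angptl4 and Txnip, control libraries 1 and 2 and fish oil library 1 were higher than the other 3 libraries. Klf15, a glucocorticoid-induced factor of fasting, was not divided in this way, at 21.3, 28.0 and 10.8 CPM against 16.4, 10.8 and 17.8 CPM. Of the 15 tested fasting and FoxO genes, 0 rose and 1 fell, with a median of -0.34, or -0.59 with 8 passing without fish oil library 1. Fkbp5, a classic glucocorticoid target, was at 55.7, 49.1 and 11.0 CPM against 54.4, 4.87 and 12.1 CPM (edgeR adjusted p = 0.653). Of 18 glucocorticoid target genes, 0 rose and 1, Rgs2, fell, with a median of -0.31. Without fish oil library 1 that median was -0.88 and 9 passed.

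The clock list held 2 genes that passed. Per2, a repressor of the clock, was at 16.5, 15.0 and 15.4 CPM in control and 22.0, 32.5 and 34.5 CPM in fish oil libraries, without overlap (0.92 ± 0.168, edgeR adjusted p = 0.0309). Of 21 tested clock genes, 2 rose, Per2 among them, 0 fell and 15 were positive, with a median of 0.35. Of all genes tested, 0.216% rose. At an unadjusted p under 0.05 (edgeR), 9 clock genes were higher, against 7.26% of all genes, and 0 lower, against 6.07%. All fish oil libraries lay above control for 4, against 5.05% of all genes tested. Leaving out fish oil library 1 gave a median of 0.08, and 9 passed. Arntl, the activator of the loop, was at 7.69, 3.26 and 13.7 CPM against 12.8, 6.44 and 6.16 CPM (0.05 ± 0.348, edgeR adjusted p = 0.968). Nr1d1, the repressor of Arntl, was at 25.5, 45.1 and 11.3 CPM against 29.6, 30.4 and 22.7 CPM (0.02 ± 0.301, edgeR adjusted p = 0.99), and its sign turned in the unstranded counts. Per1 had a log2 fold change of -0.15 (edgeR adjusted p = 0.84) and Tef, a clock output factor, of 0.91 (edgeR adjusted p = 0.143). Bhlhe40, a clock repressor that feeding induces, was at 4.74, 6.04 and 48.7 CPM against 9.57, 126 and 55.1 CPM (edgeR adjusted p = 0.331). The labels used here give no hour of collection.

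The thermogenic programme showed no gene that passed (edgeR), and its median was 0.04. Leaving out fish oil library 1 gave 5 that passed, in a fit where 11.4% of all genes did, and a median of -0.04. Of its 24 tested members, 5 were higher at an unadjusted p under 0.05, as were 7.26% of all genes, and 4 lower, as were 6.07%. Ucp1 was at 2359, 2568 and 4420 CPM in control and 3412, 2652 and 4463 CPM in fish oil libraries (0.17 ± 0.225, edgeR adjusted p = 0.779). The groups overlapped, and library 3 of either diet was the highest of its group. Dio2, which activates thyroid hormone and responds to cold, was at 93.2, 93.0 and 431 CPM against 310, 51.9 and 55.0 CPM (edgeR adjusted p = 0.74). Elovl3, an elongase that cold induces, was at 16.5, 10.1 and 16.3 CPM against 124, 17.3 and 10.6 CPM (edgeR adjusted p = 0.274), so fish oil library 1 alone was high. Ppargc1a, Prdm16 and Cidea, a coactivator, an identity factor and a droplet protein of brown fat, had log2 fold changes of -0.10, 0.62 and 0.36 (edgeR adjusted p = 0.898, 0.245 and 0.424). Ffar4, a receptor for long-chain fatty acids of the kind in fish oil, was at 3.84, 6.28 and 13.5 CPM against 7.87, 5.73 and 7.12 CPM (-0.18 ± 0.332, edgeR adjusted p = 0.848). Fgf21 had 13 counts over the 6 libraries and was not tested.

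The other genes that rose serve varied roles. Nabp1, a single-stranded DNA binding protein, was at 56.8, 71.6 and 82.7 CPM in control and 126, 257 and 182 CPM in fish oil libraries (1.42 ± 0.244, edgeR adjusted p = 0.0252). Nat8l, which makes N-acetylaspartate and is enriched in brown fat, was at 24.2, 27.1 and 49.2 CPM against 51.5, 113 and 84.4 CPM (1.31 ± 0.26, edgeR adjusted p = 0.0414). Hspa8, the constitutive heat shock cognate chaperone, rose by 1.22 (edgeR adjusted p = 0.0252) and was the 1 of 17 chaperone genes that passed. It has many near-identical pseudogenes, so its counts are uncertain. Klf10, a factor induced by TGF-beta, and Dvl2, a transducer of Wnt signals, rose by 1.12 and 1.19 (edgeR adjusted p = 0.0309 and 0.0327). Spire1, an actin nucleator, and Cd1d1, which presents lipid antigens, rose by 1.08 and 1.02. Rbm47, Rpp14, Mknk2, Prkce, Poldip2, Utp14b and Maged1 rose by 0.50 to 1.07. Sorcs2, a sorting receptor, was at 2.40, 4.49 and 5.86 CPM in control and 4.89, 40.0 and 39.5 CPM in fish oil libraries, and is the gene that passed with overlapping groups (2.73 ± 0.532, edgeR adjusted p = 0.0365). In GENCODE vM21, exons of 6 of the 38 genes overlap another gene on the same strand, and exons of 9 on the other strand. Among the 6 are Utp14b with Acsl3 and Hspa8 with Snord14c, Snord14d and Snord14e, so their counts may hold reads of those neighbours. Among the 9 are Dvl2 with Acadvl and Cyp51 with Akap9. Forward counts were used, and how far reads of other-strand neighbours enter them was not tested.

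Among the remaining lists, signalling and G protein genes had 2 of 29 higher and 3 lower, with a median of -0.01. The members that passed are the 5 named with the other results: Rgs2, Dvl2, Klf10, Hipk3 and Prkag2. Triglyceride synthesis, fatty acid uptake and creatine cycle genes had medians of 0.21, -0.01 and 0.15, and 0 passed in each. PPAR target genes had a median of 0.02, and Plin2 was the 1 of 23 that passed. Genes of endoplasmic reticulum stress, oxidative stress, immediate early response and fatty acid sensing had medians of 0.06, 0.08, -0.05 and -0.04, with 0 passing. Several of these medians moved when fish oil library 1 was left out, and 11.4% of all genes then passed. Without that library, immediate early genes had a median of -0.78 with 8 of 15 passing. Oxidative stress genes had -0.10 with 7 of 20 and fatty acid sensing genes -0.18 with 2 of 10. Fatty acid uptake genes then had a median of -0.45 with 9 of 13 passing, PPAR target genes -0.38 with 9 of 23, and signalling and G protein genes -0.19 with 12 of 29.

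Slc29a1, which carries adenosine and other nucleosides, fell from 16.4, 17.2 and 24.9 CPM to 7.59, 7.93 and 9.28 CPM (-1.24 ± 0.179, edgeR adjusted p = 0.0111). The 3 fish oil libraries lay together, below every control library. Hipk3, a nuclear kinase, fell from 185, 224 and 182 CPM to 123, 135 and 127 CPM (-0.62 ± 0.11, edgeR adjusted p = 0.0252). Trim3 and Cep126, a ubiquitin ligase and a centrosome protein, fell by 0.64 and 0.78 on the log2 scale (edgeR adjusted p = 0.0309 and 0.0342). In the fit of the weaned libraries alone, the 10 lowest p-values included those of Plin2, Slc29a1, Adprhl1, Fasn, Cyp51, Nabp1 and Ddhd2. They also included those of Marc1 and Nr4a2, which did not pass in the shared fit. Marc1, a molybdenum enzyme of the mitochondrial outer membrane, was at 1.72, 1.96 and 1.47 CPM in control and 4.11, 5.73 and 3.92 CPM in fish oil libraries (1.42 ± 0.535, edgeR adjusted p = 0.264). Nr4a2, an immediate early nuclear receptor, was at 7.00, 5.06 and 7.25 CPM against 21.3, 12.6 and 13.3 CPM (1.29 ± 0.291, edgeR adjusted p = 0.0848).

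Markers of other cell types moved with some libraries. In bulk tissue, fewer cells of a type and less RNA per cell cannot be told apart. Skeletal muscle genes summed to 102, 99.3 and 358 CPM in control and 318, 372 and 275 CPM in fish oil libraries, so that control libraries 1 and 2 stood below the other 4. Myh4, a fast myosin, was at 0.961, 2.29 and 27.0 CPM against 29.0, 46.5 and 31.4 CPM, and Myh2 was at 0 in control libraries 1 and 2. Of 35 muscle genes, 32 were positive and 0 passed (edgeR), with a median of 1.22, or 2.79 without control library 3. An unadjusted p under 0.05 (edgeR) was found for 6 of the 35, against 13.3% of all genes tested. Adprhl1, which is known from heart muscle, was low throughout, at 0.343, 0.245 and 0.308 CPM in control and 1.13, 2.43 and 2.80 CPM in fish oil libraries (2.77 ± 0.472, edgeR adjusted p = 0.0252). Its control values rest on few counts, and the part of muscle content in its rise was not tested. Endothelial, mural and fibroblast genes had medians of -0.25, -0.33 and -0.30, with 1 of 16, 1 of 11 and 2 of 18 positive and 0 passing in each. Rgs5, a pericyte gene, was at 430, 323 and 458 CPM in control and 296, 266 and 275 CPM in fish oil libraries (-0.53 ± 0.12, edgeR adjusted p = 0.0854). Endothelial genes summed to 717 to 953 CPM in control and 620 to 784 CPM in fish oil libraries, and mural genes to 571 to 782 CPM against 514 to 556 CPM. Fibroblast and matrix genes summed to 2041, 2139 and 1793 CPM in control and 1869, 1410 and 1961 CPM in fish oil libraries, so that fish oil library 2 alone lay below the control range. The endothelial, mural and fibroblast medians were -0.37, -0.58 and -0.49 without fish oil library 1. Then 6, 5 and 2 passed, in a fit where 11.4% of all genes did. Macrophage genes summed to 64.0 to 86.9 CPM against 52.7 to 86.3 CPM, erythroid genes to 178 to 236 CPM against 188 to 388 CPM, and lymphocyte genes to at most 12.3 CPM in any library. Nerve and proliferation genes summed to 34.5 to 62.5 and 19.3 to 25.5 CPM in control and to 38.8 to 65.4 and 19.5 to 41.3 CPM in fish oil libraries. The Y-linked gene Ddx3y was at 71.2 to 110 CPM in all 6 libraries. The part of these markers in the results above was not tested.

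**Figure D4:**
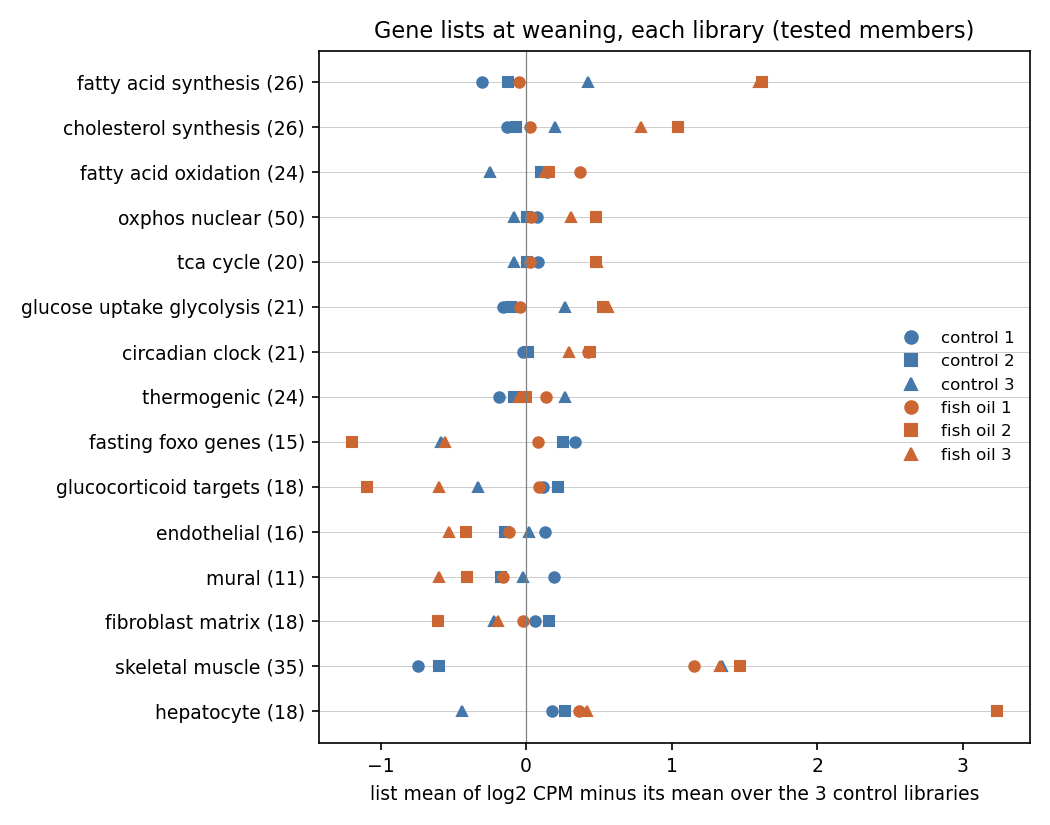
Mean log2 CPM of each gene list minus its mean over the 3 control libraries (horizontal), 1 point a library, with the number of tested members in brackets. Fish oil library 1 lies among the control libraries for fatty acid synthesis, and fish oil library 2 stands alone for hepatocyte genes, whose sum was 762 CPM.

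Several genes with a mean of at least 20 CPM varied widely within a group. Ttc25, a gene of ciliary dynein docking, was at 1.72, 1.96 and 15.0 CPM in control and 1.06, 51.3 and 111 CPM in fish oil libraries, a range of 6.51 on the log2 scale within fish oil. Slc7a8, an amino acid transporter gene, went the other way, at 161, 167 and 5.71 CPM against 202, 45.3 and 6.00 CPM. Peg3, an imprinted gene, was at 309, 256 and 76.0 CPM against 781, 43.2 and 41.6 CPM. In each of these 3 genes fish oil library 1 was on the side of control libraries 1 and 2, and control library 3 was nearer to fish oil libraries 2 and 3.

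The diet effect at weaning was set against those of the fetal and adult libraries by interaction terms in the same fit, and both contrasts share the weaned libraries. It differed from the fetal effect for 18 genes (0.125%) and from the adult effect for 36 (0.251%). Fits of only the ages compared gave 5 and 1. Of the 38 genes that passed at weaning, 7 differed from the fetal and 12 from the adult effect. The 38 were selected by the weaned contrast, which is part of both interaction terms, so these counts describe them and are no separate support. Fasn was at 188 and 127 CPM in fetal and 8190 and 4733 CPM in adult control and fish oil libraries. Its log2 diet effect was 2.06 at weaning, -0.57 in fetal and -0.79 in adult libraries. Plin2 had diet effects of 1.36 at weaning, -0.05 in fetal and -0.13 in adult libraries.

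**Figure D5:**
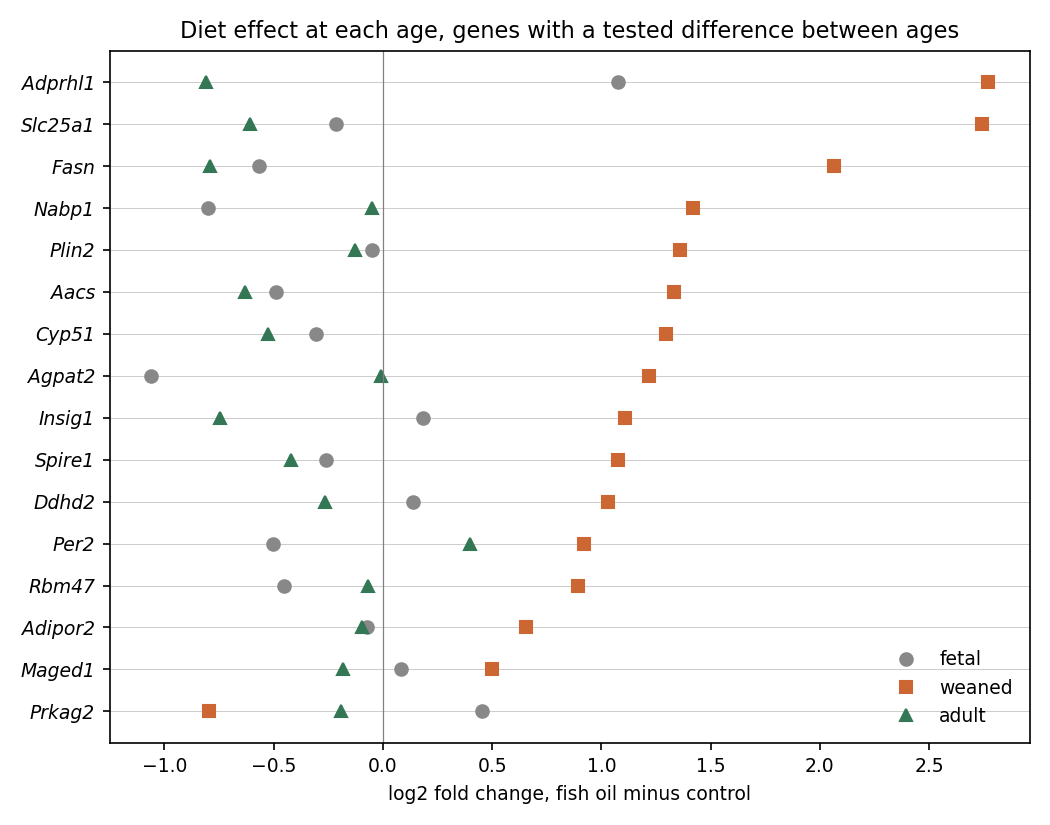
Log2 fold change of fish oil over control (horizontal) in fetal, weaned and adult libraries for the 16 named genes whose weaned effect differed from that of another age by the interaction test. Fasn was 2.06 at weaning, -0.57 in fetal and -0.79 in adult libraries.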

How the data were processed

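RNA of interscapular brown fat was measured in 18 libraries, 3 in each of 6 groups. The deposited files hold raw counts per Ensembl gene in 3 columns (unstranded, forward, reverse), and the forward counts were used. The tools named are STAR and Bowtie 0.12.2 and the builds mm8 and mm9, per the submitters' processing notes; the gene annotation was not given in the sources used. Symbols matched 52083 of 55416 identifiers, with 99.97% of the counts.

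Counts were filtered with filterByExpr, scaled with TMM factors and fitted with the quasi-likelihood test of edgeR 4.0.16 (R 4.3.3), all 18 libraries in 6 groups. Benjamini-Hochberg adjustment covered the 14366 genes tested, and genes at or under 0.05 passed whatever their fold. The main fit was also run on simulated counts in which a gene had the same spread at every age. That run therefore does not check the shared spread. Alternatives used limma 3.58.1, DESeq2 1.42.0, other scalings and filters, a replicate block, unstranded counts and each weaned library left out. Same-numbered weaned libraries had correlations of 0.287, -0.127 and 0.244 in their deviations from the group mean, and other weaned pairs -0.340 to 0.205. Same-numbered fetal libraries had 0.076, 0.096 and 0.055, and other fetal pairs were negative. Same-numbered adult libraries had 0.052, -0.315 and -0.486. These values do not settle whether the numbers pair libraries, and the labels do not say so. The main fit took no pairs. In a library, 3 counts correspond to 0.167 to 0.203 CPM of its raw forward total, a floor that covers counting error only. The ± of a log2 fold change is its standard error in the edgeR fit, which includes the spread between libraries.

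Named genes were every gene that passed, 8 thermogenic and fatty acid genes, the first 8 and any passing member of each of 36 gene lists, all clock, mitochondrial and sex-linked members, the 10 widest ranges in each group (mean of at least 20 CPM) and the 10 lowest p-values of the weaned libraries alone; some genes this gives are not reported here. Members and lists were chosen with earlier results of these data known. Promoter windows come from RefSeq (GRCm38.p6).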

Additional observations from a re-analysis of the deposited data

Results flagged for a closer look

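The diet effect of a gene was set apart here where the test of its difference between ages passed. Weaned minus fetal differences of the log2 diet effect were tested by edgeR interaction terms. Plin2, Fasn and Nabp1 gave 1.41, 2.63 and 2.22 (edgeR adjusted p = 0.0263, 0.0159 and 0.0139). Per2, Prkag2, Rbm47 and Agpat2 gave 1.43, -1.25, 1.35 and 2.28 (edgeR adjusted p = 0.0206, 0.0225, 0.0491 and 0.0263). Adult minus weaned differences, which share the weaned libraries with the first set, were negative for each gene given here. Each of these genes had passed as higher at weaning, and this term subtracts the weaned effect. Their shared sign is therefore no separate result. Plin2, Fasn and Adipor2 gave -1.49, -2.85 and -0.75 (edgeR adjusted p = 0.0196, 0.0182 and 0.0389). Adprhl1, Cyp51, Spire1 and Ddhd2 gave -3.58, -1.82, -1.50 and -1.29 (edgeR adjusted p = 0.0196, 0.0235, 0.0237 and 0.0396). Slc25a1, Aacs, Maged1 and Insig1 gave -3.35, -1.97, -0.68 and -1.85 (edgeR adjusted p = 0.0396, 0.0196, 0.0396 and 0.0196). Agpat2, which makes phosphatidic acid on the way to triglycerides, did not pass at weaning itself (1.22 ± 0.277, edgeR adjusted p = 0.085). It was at 96.4, 83.3 and 189 CPM in control and 196, 362 and 297 CPM in fish oil libraries, with no overlap. The outlying libraries within groups of 3 were not tested.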

How the results depend on the processing

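The 36 named genes that passed kept their direction under every alternative run. All 38 that passed did so with DESeq2 size factors (40 genes in all), without mt-Rnr1 and mt-Rnr2 (40), with at least 5 CPM in 3 libraries (40), with DESeq2 (191) and with no filter (770), and 37 of them with unstranded counts (41). With library size alone 63 passed, 60 higher and 3 lower, 34 of them shared, while the median of all genes moved to 0.06. Limma-voom gave 21 and limma-voom with weights per age 1. Only the weaned libraries gave 0 with edgeR (643 with an unadjusted p under 0.05), 15 with DESeq2 and 0 with limma-voom (555), the last 2 chosen after seeing the data. Leaving out 1 weaned library gave 2 to 1632 genes in the shared fit and 0 to 50 with only the weaned libraries, the 50 without fish oil replicate 1. The replicate block within each age gave 13 genes, 9 of them shared, 1 for the weaned minus fetal and 8 for the adult minus weaned difference; replicate numbers were not read as pairs. The weaned minus fetal count of 18 became 5 with only the ages compared, 28 with library size alone, 352 with no filter, 41 with at least 5 CPM in 3 libraries, 115 with DESeq2 and 5 to 467 without 1 library. The adult minus weaned count of 36 became 1 with only the ages compared, 63 with library size alone, 555 with no filter, 165 with DESeq2, 4 with limma-voom, 3 with weights per age and 1 to 813 without 1 library. The mt-Rnr2 difference of -5.04 percentage points was -5.53 to -4.22 without 1 library. Genes that did not pass and changed sign were Nr1d1 (-0.028 unstranded), Ffar4 (0.019 with limma-voom and 0.021 with weights per age) and Peg3 (-0.68 with limma-voom, -0.68 with weights per age and -0.70 with the replicate block). Without 1 library the log2 fold change ran from -0.39 to 0.62 for Arntl, -1.95 to 0.58 for Dio2, -0.042 to 2.30 for Elovl3, -0.52 to 0.45 for Ffar4, -0.36 to 0.58 for Nr1d1 and -2.18 to 0.17 for Pdk4. It ran from -2.34 to 0.95 for Peg3, -0.53 to 0.14 for Per1, -0.41 to 0.064 for Ppargc1a, -2.12 to 0.15 for Slc7a8 and -0.040 to 0.50 for Ucp1. Medians of 18 of 36 lists moved by more than 1 SD in some alternative; the clock median was 0.08 without fish oil replicate 1 and the hepatocyte median 0.47 without fish oil replicate 2. The causes were not tested.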
